A study of Macaca fascicularis with 132 samples.

Results

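Mononuclear cells from the blood of cynomolgus macaques that had spent 24 h in culture with heterodimeric interleukin-15 were compared with cells of the same animals that had spent 24 h in culture without it. The members were taken by their labels: 12 libraries with 40 ng/ml of the heterodimer (IL-15 bound to its receptor alpha chain) and 12 control libraries with 0 ng/ml, 2 of the 11 groups of 12 libraries in the series (8 of 44 sums of 3 libraries). They come from 4 animals, females 38142 and 38155 and males 38147 and 38157, with 3 numbered libraries for each animal and treatment. The other libraries are control cultures at 0, 2, 6, 12 and 48 h and IL-15 cultures at 2, 6, 12 and 48 h from the same 4 animals. The design text speaks of 6 animals, and others are not analysed here. The labels give no age of the animals, no culture medium and no number of cells. They do not say whether the 3 libraries of an animal are separate cultures, so their counts were summed and the animal was the unit of replication, with 4 pairs of sums at 24 h. Where the libraries of an animal are not separate cultures, spread between them is technical.

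IL-15 signals through the receptor beta chain that it shares with IL-2 and through the common gamma chain, which activate JAK kinases and the transcription factor STAT5. It is known for keeping natural killer cells and memory CD8 T cells alive and for making them divide and arm their cytotoxic granules. Natural killer cells, T cells, B cells and monocytes make up most of a preparation of blood mononuclear cells. In such a mixture, fewer cells of a type and less RNA per cell cannot be told apart. The count tables hold gene IDs without symbols, and the reference table used here matched 0 of them. The labelled cell type could therefore not be checked against its markers. Genes are described below in groups, and 2 IDs that were higher and 2 that were lower are followed one by one.

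At 24 h a library held 18491137 to 37061972 counts, with a median of 26908591 in control libraries and 26790953.5 in IL-15 libraries. Each sum of 3 libraries held 62985282 to 100669423 counts. The 20 most abundant genes of a library took 7.99% to 9.76% of the counts in the 12 control libraries and 10% to 11.3% in the 12 IL-15 libraries, so the groups did not overlap. In the sums this share was higher with IL-15 by 1.59 ± 0.791 percentage points (SD, n = 4 animals), in 4 of 4 animals, and the exact two-sided sign-flip permutation test gave p = 0.125, the smallest it can give with 4 pairs. The scaling factors of the TMM method, which correct for such shifts, were 1.11 to 1.19 in control sums and 0.983 to 1.06 in IL-15 sums. The part of this shift in the counts of genes below was not tested beyond the other scaling given in the closing section. One IL-15 library at 24 h, number 2 of animal 38147, lay apart from both its sister libraries. Its root mean square log2 distance to the nearer one was 0.432, against a median of 0.21 over all libraries. Control library 1 of animal 38142 at 48 h lay further apart from its sisters, at 0.941. Control library 3 of animal 38157 at 2 h lay at 0.486.

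The first question was how much of the RNA profile at 24 h differed with IL-15. Levels are given as CPM, the counts of a gene scaled to a common library total. Of the variation in log2 CPM among the 8 sums (as squared deviations), 31.8% went with the heterodimer, 56.9% with the animal and 11.2% with neither. Of 18197 genes tested, 39% were called, meaning an adjusted p under 0.05 in edgeR's quasi-likelihood test with Benjamini-Hochberg adjustment: 20% were higher with IL-15 (3644 genes) and 19% lower (3453 genes). Neither direction prevailed under all settings, since the share of higher genes among those called was 51.3% here and between 43.7% and 64.4% under the alternatives. In the rhesus macaque table, 3404 genes were higher and 3696 lower, 41.7% of 17044 tested.

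Most of these differences were small. Among the genes that were higher, 1876 changed by less than 1.5-fold, 897 by 1.5- to 2-fold, 583 by 2- to 4-fold and 288 by 4-fold or more. Of the last group, 98 changed by at least 8-fold and 31 by at least 16-fold. Among the genes that were lower, 1395 changed by less than 1.5-fold, 937 by 1.5- to 2-fold, 861 by 2- to 4-fold and 260 by 4-fold or more, of which 65 reached 8-fold and 12 reached 16-fold. The log2 fold change had a median of 0.57 for genes higher and -0.71 for genes lower, against a median standard error of 0.14 over the genes called. Over all genes tested the median log2 fold change was -0.054.

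**Figure D1:**
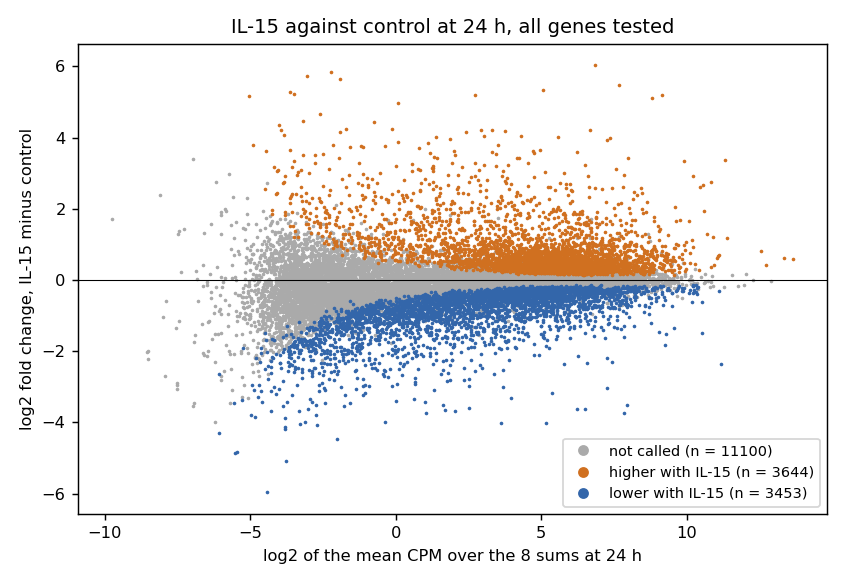
Each point is a gene, with the log2 of its mean CPM over the 8 sums at 24 h on the x axis and its log2 fold change, IL-15 minus control, on the y axis. The 3644 genes called higher and the 3453 called lower lie above and below a band of 11100 genes that were not called, and the band is wider at low CPM.

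Among the genes called, large fold changes were found mainly at low CPM. The wider standard error at low CPM means that a gene there needs a larger change to be called, which favours this. The 288 genes that were higher by 4-fold or more had a median of 0.845 CPM in control sums and 5.92 CPM in IL-15 sums, and the 260 that were lower by 4-fold or more had medians of 0.487 and 0.0893 CPM. The 2773 genes that were higher by less than 2-fold went from a median of 36 CPM to 49.3 CPM, and the 2332 lower by less than 2-fold from 20.1 to 14.5 CPM. CPM values are not divided by transcript length, so these medians describe how many counts stood behind a fold change and not which genes have more transcripts.

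The same holds when genes are placed by their CPM before culture, at 0 h, in samples that the 24 h comparison does not use. Among 5632 genes under 1 CPM at 0 h, 6.85% were higher and 13.3% lower at 24 h, and they included 147 of the 288 genes with a rise of 4-fold or more and 182 of the 260 with such a fall. Among 2703 genes at 1 to 5 CPM, 15.4% were higher and 26.7% lower. At 5 to 20 CPM the shares were 25% and 22.7%, at 20 to 100 CPM they were 31.2% and 18.3%, and at 100 CPM or more they were 29.5% and 19.8%. With RLE scaling the shares were 6.48% higher and 14.3% lower under 1 CPM and 14.8% and 28.6% at 1 to 5 CPM. At 5 to 20 CPM RLE turned the balance, with 23% higher and 25.3% lower, and above that the shares were 28.4% and 21.2%, then 26.8% and 22.8%. A fit of only the genes with at least 5 CPM in 4 or more sums also had fewer higher (2594) than lower genes (3347), so the balance above 5 CPM depended on these settings. The standard error of a log2 fold change had a median of 0.48 under 1 CPM and 0.1 above 20 CPM.

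Single libraries within an animal were set against each other as a stricter description. For 1380 genes, 7.58% of those tested, all 3 IL-15 libraries lay above all 3 control libraries in each of the 4 animals, and for 1312 genes (7.21%) all 3 lay below. These include 37.7% of the genes called higher and 36.5% of those called lower. For 605 genes (3.32% of those tested) the 12 IL-15 libraries lay above all 12 control libraries whatever the animal. For 277 genes (1.52%) they lay below. Among genes with a rise of 4-fold or more, 48.3% had no overlap between the 12 and 12 libraries. Among genes with such a fall it was 11.5%. Both sets were chosen by their change in these same libraries, which favours such a separation.

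The time course of the genes called at 24 h was followed in the cultures of other times, which have control samples of their own. After 2 h of culture, 4.25% of the genes higher at 24 h and 1.51% of those lower were already called in the same direction, against 1.67% of all genes called higher and 0.495% called lower at that time. After 6 h these shares were 21.5% and 14.9% (5.12% and 3.54% of all genes), and after 12 h they were 72.2% and 55.6% (17.5% and 14% of all). By 48 h they were 69.2% and 64.7% (20.2% and 20% of all). In turn, 51.2% of the genes higher at 2 h and 57.8% of those lower at 2 h were called that way at 24 h. For genes called at 6 h these shares were 84.2% and 79.8%. Opposite calls were few from 6 h on. Of the genes higher at 24 h, 2 were called lower after 6 h, 1 after 12 h and 12 after 48 h. Of the genes lower at 24 h, 3 were called higher after 6 h, 1 after 12 h and 14 after 48 h. After 2 h, 8 of the former were called lower and 15 of the latter higher, beside 155 and 52 in the same direction.

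The genes with the greatest changes at 24 h had median log2 fold changes near 0 at 2 h. For the 288 genes with a rise of 4-fold or more, the median log2 fold change was 0.01 after 2 h and 0.78 after 6 h. It was 2.17 after 12 h, then 2.63 and 2.39 after 24 and 48 h. For the 260 genes with a fall of 4-fold or more it was -0.13 after 2 h and -0.45 after 6 h, then -1.3, -2.47 and -1.83 after 12, 24 and 48 h. Both groups were chosen for their size at 24 h, which favours a peak there, so the values at 24 h stand as a description. Of the first group, 76.7% were called in the same direction after 12 h and 84% after 48 h. Of the second, 41.9% and 64.6% were.

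**Figure D2:**
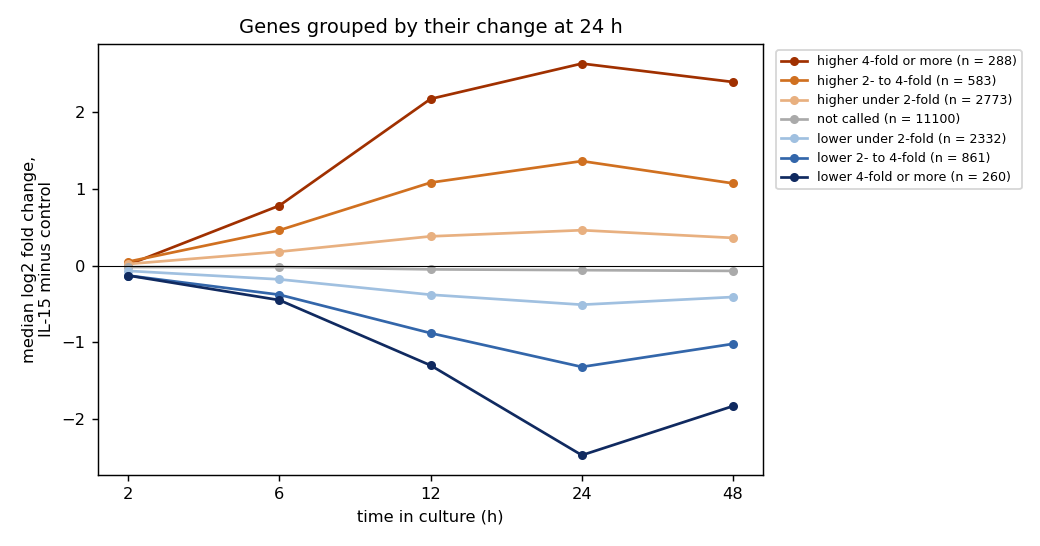
Median log2 fold change (y axis, IL-15 minus control) of genes grouped by their size and direction of change at 24 h, over the time in culture (x axis, hours, evenly spaced). The medians lie between -0.13 and 0.05 at 2 h and part from 6 h on, and the groups keep their order at 12, 24 and 48 h.

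Genes called at 24 h fell into 4 time classes. Of those higher at 24 h, 50.5% were also higher at both 12 and 48 h (1842 genes), 21.7% at 12 h but not at 48 h (789), 18.6% at 48 h but not at 12 h (678), and 9.19% at neither (335). Of those lower, the shares were 39% (1348), 16.6% (573), 25.7% (887) and 18.7% (645). The 335 and 645 genes called at 24 h alone had median adjusted p-values of 0.0201 and 0.0167 in the edgeR test. For 0 of these genes did the effect differ from that at 12 h in edgeR's test of the difference, and it differed from that at 48 h for 6 of the 335 and 17 of the 645. They are genes that crossed the threshold at 24 h and not genes shown to respond at 24 h only.

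The effect at 24 h was then tested against the effects before and after it. Between 12 and 24 h the change passed for 0.561% of genes, upwards for 96 genes and downwards for 6 (edgeR, adjusted p under 0.05). Of the 96, 94 were higher at 24 h, with median log2 fold changes of 0.37 at 12 h and 1.94 at 24 h over all 96. From 24 to 48 h the effect differed for 551 genes (3.03%), upwards for 420 and downwards for the rest. Of the 420, 208 were already higher at 24 h, 56 were lower and 156 were not called, and the median effect of the 420 went from 0.34 to 1.42. Of those that went downwards, 77 were higher at 24 h and 10 lower, and the median effect went from 0.41 to -0.4. The effect lay above that at both 12 and 48 h for 0 genes and below both for 0 genes in this test.

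These counts moved with the animals used and with the model. Without animal 38142 the difference between 12 and 24 h was called for 0 genes, with 772 at an unadjusted p under 0.05, against 1190 with all animals. Without 38147 it was called for 30 genes and without 38155 for 43. For the step from 24 to 48 h, 236 genes were left without 38142, 312 without 38147 and 332 without 38155. Without 38157 the values were close to those with all animals, 0.565% of genes for the first step and 532 genes for the second. A block for every pair of sums (one animal, one time) gave 186 genes for the first step and 1161 for the second. Without the 3 libraries that lay apart from both sister libraries, the first step gave 110 genes and the second 813.

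A set of 76 genes was on its way at 24 h: their effect was greater at 24 h than at 12 h and greater again at 48 h, and both steps passed the test. In control cultures their median lay between 2.53 and 4.25 CPM from 0 to 48 h, while 13 of them rose and 14 fell by 12 h. In IL-15 cultures their median stood at 4.03 to 4.43 CPM until 12 h, at 8.42 CPM after 24 h and at 35.1 CPM after 48 h. The median log2 fold change was 0.07 after 2 h, 0.03 after 6 h, 0.31 after 12 h, 1.84 after 24 h and 3.81 after 48 h. Of the 76 genes, 25 were called higher after 12 h, 75 after 24 h and all after 48 h. The median at 24 h was 2.09 in animal 38142, 1.74 in 38147, 1.75 in 38155 and 1.43 in 38157. All 76 rose from 12 to 24 h and from 24 to 48 h in each animal, which their choice by these tests favours. With animal 38142 left out, 0 of the 76 passed the adjusted test from 12 to 24 h although 76 had an unadjusted p under 0.05; 23 passed without 38147, 33 without 38155 and 67 without 38157.

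ENSMFAG00000045313 had the highest log2 fold change at 24 h among the 2681 genes that were called higher, had at least 10 CPM in one group and rose in all 4 animals. Control sums held 2.79 CPM in animal 38142, 1.17 CPM in 38147, 13.5 CPM in 38155 and 1.43 CPM in 38157. IL-15 sums held 250 CPM in 38142, 156 CPM in 38147, 450 CPM in 38155 and 48 CPM in 38157. The lowest IL-15 sum thus lay above the highest control sum, and animal 38155 was the highest in both groups. It was 65.2-fold higher with IL-15, a log2 difference of 6.03 ± 0.68 (SE, edgeR adjusted p = 3.7e-08). Over single libraries, control values had a median of 2.14 CPM and a maximum of 23 CPM, and IL-15 values a minimum of 40.3 CPM and a median of 208 CPM. Library 2 of animal 38147, the one that lay apart at 24 h, held 242.1 CPM against 114.7 and 110.8 CPM in its sister libraries.

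This gene was near 0 before culture, with a mean of 0.192 ± 0.139 CPM (SD, n = 4 animals) at 0 h. With IL-15 the mean was 0.0776 CPM after 2 h, 79.9 CPM after 6 h and 159.9 CPM after 12 h. It was 226 ± 171 CPM after 24 h and 74 CPM after 48 h. Control cultures went from 1.66 CPM after 6 h and 1.33 CPM after 12 h to 4.72 ± 5.88 CPM after 24 h and 9.67 ± 16.2 CPM after 48 h. The control mean at 48 h rests on animal 38155, with 33.9 CPM. Animals 38142, 38147 and 38157 held 2.445, 2.014 and 0.357 CPM then. The log2 fold change was 5.66 after 6 h, 7.49 after 12 h and 3.76 after 48 h, with edgeR adjusted p-values of 5.3e-07, 4.9e-09 and 1.1e-05. Between 12 and 24 h it changed by -1.46 ± 0.84 (SE, edgeR adjusted p = 0.898) and between 24 and 48 h by -2.26 ± 0.8 (edgeR adjusted p = 0.135), so an order of these effects was not shown.

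ENSMFAG00000064553 had the second highest log2 fold change, 5.49 ± 0.6 (SE; edgeR adjusted p = 2e-08), or 45-fold. Control sums held 9.17 CPM in animal 38142, 4.86 CPM in 38147, 24 CPM in 38155 and 2.07 CPM in 38157. IL-15 sums held 482 CPM in 38142, 369 CPM in 38147, 674 CPM in 38155 and 91 CPM in 38157. Again the groups did not overlap, with animal 38155 highest and 38157 lowest in both. Library 2 of animal 38147 held 575 CPM against 257 and 275 CPM in its sister libraries.

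Unlike the first ID, ENSMFAG00000064553 was present before culture, at 7.12 ± 2.62 CPM (SD, n = 4 animals). With IL-15 the mean was 3.57 CPM after 2 h, 106.5 CPM after 6 h and 299.9 CPM after 12 h. It was 404 ± 244 CPM after 24 h and 157 CPM after 48 h. Control cultures reached 23.5 CPM by 48 h, when the log2 fold change was 3.01 ± 0.53 (SE, edgeR adjusted p = 3.7e-05). That is -2.48 ± 0.71 from the effect after 24 h, a difference with an edgeR adjusted p of 0.0501.

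ENSMFAG00000043061 had the lowest log2 fold change among the 1551 genes that were called lower under the same rule, -4.02 ± 0.72 (SE, edgeR adjusted p = 5.1e-05). Control sums held 101.3 CPM in animal 38142, 124.8 CPM in 38147, 20.3 CPM in 38155 and 20.6 CPM in 38157. IL-15 sums held 3.93 CPM in 38142, 14.8 CPM in 38147, 0.186 CPM in 38155 and 1.94 CPM in 38157. The highest IL-15 sum lay below the lowest control sum, although control sums of the animals differed widely among themselves. Over single libraries the lowest control value was 16 CPM and the highest IL-15 value 17.3 CPM, so the libraries overlapped between animals but not within one.

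The level of ENSMFAG00000043061 in control culture climbed from a mean of 2.89 ± 1.25 CPM before culture (SD, n = 4 animals) to 15.2 CPM after 12 h, 66.7 ± 54.3 CPM after 24 h and 104.8 CPM after 48 h. With IL-15 the mean was 3.7 CPM after 6 h, 3.21 CPM after 12 h, 5.22 ± 6.58 CPM after 24 h and 17.7 CPM after 48 h. The animals lay on both sides of their level before culture: 38142 held 3.93 CPM with IL-15 at 24 h against 2.99 CPM at 0 h and 38147 held 14.8 against 2.69 CPM, while 38155 held 0.186 against 1.41 CPM and 38157 held 1.94 against 4.46 CPM. The log2 fold change was -0.44 after 6 h, -2.4 after 12 h and -3 after 48 h, with edgeR adjusted p-values of 0.8, 0.0084 and 8e-04.

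ENSMFAG00000039255 came next, at -4.02 ± 0.58 on the log2 scale (SE, edgeR adjusted p = 2.1e-06). Control sums held 26.8 CPM in animal 38142, 38.2 CPM in 38147, 3.41 CPM in 38155 and 23.7 CPM in 38157. IL-15 sums held 0.808 CPM in 38142, 5.19 CPM in 38147, 0.136 CPM in 38155 and 1.05 CPM in 38157. The groups overlapped here, because the IL-15 sum of animal 38147 lay above the control sum of 38155, while each animal's IL-15 sum lay below its own control sum. In control culture the mean went from 0.185 ± 0.0746 CPM before culture (SD, n = 4 animals) to 9.24 CPM after 6 h, 23 ± 14.5 CPM after 24 h and 11.7 CPM after 48 h. With IL-15 it was 5.87 CPM after 6 h, 2.7 CPM after 12 h, 1.8 ± 2.29 CPM after 24 h and 2.42 CPM after 48 h.

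The 4 IDs are the extremes of the 24 h comparison, so their size at 24 h is a result of the choice and their adjusted p-values there are no separate support. All 4 kept their direction and an adjusted p under 0.05 under each of the 18 alternatives run on the cynomolgus table. These alternatives use the same counts, and the IDs were chosen for their size and for 1 direction in all 4 animals. That choice favours such an outcome, which is therefore no separate support. Leaving out 1 animal gave log2 fold changes of 5.58 to 6.32 for ENSMFAG00000045313, 5.21 to 5.85 for ENSMFAG00000064553, -4.75 to -3.67 for ENSMFAG00000043061 and -4.69 to -3.69 for ENSMFAG00000039255.

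**Figure D3:**
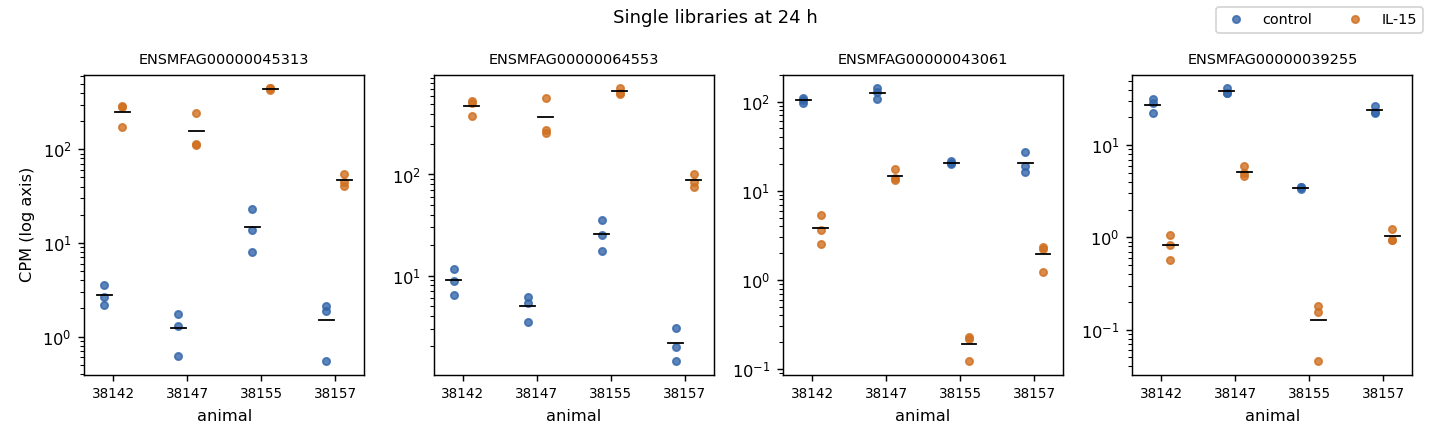
CPM on a log axis (y) of single libraries at 24 h for the 4 IDs, by animal (x), with control libraries in blue, IL-15 libraries in orange and a black bar at the mean of each 3. In every animal the 3 orange points of the first pair of IDs lie above the blue ones, and those of the second pair lie below.

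**Figure D4:**
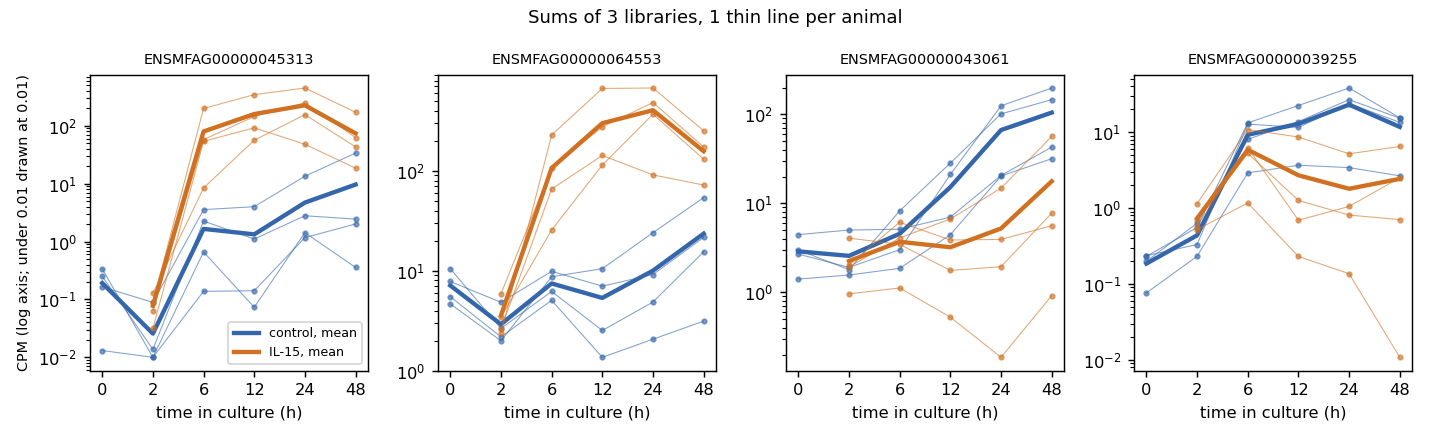
CPM on a log axis (y) against time in culture (x, hours, evenly spaced) for the 4 IDs, with 1 thin line per animal (sum of 3 libraries) and a thick line at the mean. The first pair of IDs parts from control by 6 h and the second pair by 12 h, and the means of ENSMFAG00000043061 in control culture reach 66.7 CPM at 24 h and 104.8 CPM at 48 h.

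Change in culture without IL-15 was used to place the genes further. It was taken from control cultures at 12 h against 0 h, which share no sample with the 24 h comparison, although the animals are the same. In that comparison 51.2% of the genes tested were called. Of the 4797 genes that rose in control culture, 20.4% were higher and 23.3% lower with IL-15 at 24 h, and of the 4526 that fell, 22.2% were higher and 19.4% lower. These shares lie near the 20% and 19% of all genes. Of the 567 genes that rose by 4-fold or more in culture, 6.88% were higher with IL-15 at 24 h and 28.4% lower, with a median log2 fold change of -0.61. They make up 4.66% of all genes lower at 24 h and 1.07% of those higher. Of the 487 genes that fell by 4-fold or more in culture, 10.3% were higher and 16.4% lower. Neither set was matched for its CPM before culture, on which these shares depend. Among all genes under 1 CPM at 0 h, 6.85% were higher and 13.3% lower. The part of level in the shares of the 2 sets was not tested.

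Genes called at 24 h held a large part of all counts. The genes called higher took 30.8%, 28.8%, 30.1% and 28.7% of the counts in the control sums of animals 38142, 38147, 38155 and 38157. In the IL-15 sums they took 44.9%, 40.7%, 46.7% and 38.5%. Their share was about the same before culture, 29.9% ± 0.483 at 0 h against 29.6% ± 1.02 in control cultures at 24 h and 42.7% ± 3.76 with IL-15 (SD, n = 4 animals). The genes called lower took 20.4% ± 0.551 at 0 h, 20.8% ± 1.03 in control cultures at 24 h and 13% ± 1.36 with IL-15. The genes with a rise of 2-fold or more went from 3.03% ± 0.466 to 9.24% ± 2.83. The direction of these shares follows from how the genes were chosen.

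**Figure D5:**
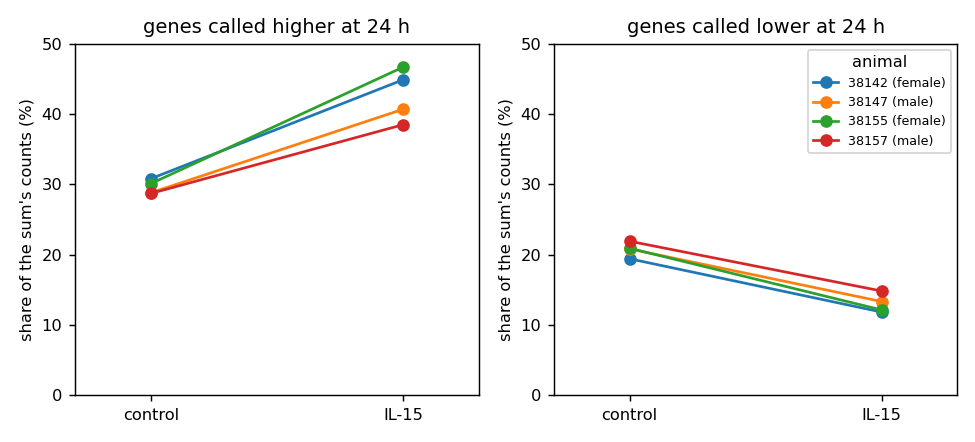
Share of each sum's counts (y axis, percent, from 0) held by the genes called higher (left) and lower (right) at 24 h, in control and IL-15 sums, with 1 line per animal. The genes called higher hold 28.7% to 30.8% in control sums and 38.5% to 46.7% in IL-15 sums, and in the left panel the lines of the 2 females end above those of the 2 males.

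The effects of the 4 animals were compared next. Genes are not independent replicates, and across the 10101 genes at or above a mean of 5 CPM log2 fold changes of 2 animals correlated with Pearson's r between 0.705 (38147 and 38157) and 0.858 (38142 and 38155), and these pairs share no library. Of all genes tested, 48.9% had the same sign in all 4 animals. The share was 91.8% among genes called higher, 89.9% among those called lower and 22.1% among those not called, a contrast that the calls, made on these animals, largely fix. The root mean square log2 fold change was 0.79 in 38155, 0.736 in 38142, 0.639 in 38147 and 0.567 in 38157. Changes of at least 2-fold numbered 760 up and 478 down in 38155, and 398 up and 195 down in 38157.

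Each animal was also set against calls made without it. Of the genes called higher in the other 3 animals, 96.5% lay above 0 in animal 38142, 95.8% in 38147, 98% in 38155 and 92.4% in 38157. Of the genes called lower, 93.6%, 90.6%, 96.1% and 86.1% lay below 0 in the same animals. Genes not called had the same sign in the animal left out for 63.5% to 73%. In animal 38157 the median log2 fold change of these genes was 0.46 against 0.64 in the others for genes higher, and -0.44 against -0.8 for genes lower. In 38147 the medians were 0.48 against 0.63 and -0.53 against -0.73. In 38142 they were 0.71 against 0.67 and -0.65 against -0.74, and in 38155 0.72 against 0.62 and -0.74 against -0.76. Choosing the genes in the other animals favours a smaller median in the one left out.

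A test of the difference between animals used the 24 single libraries, with the spread between the 3 libraries of an animal as the error. The IL-15 effect differed between animals for 3322 of 15839 genes (21%; edgeR quasi-likelihood F test, adjusted p under 0.05). The labels do not say whether the spread between libraries is technical. In animals 38142, 38147 and 38157 the column-name token, described below, also differs between the treatments. Differences between animals and between tokens therefore cannot be told apart in this test or in the calls of single animals. Among genes called higher at 24 h the share was 29.9%, among those called lower 22.2% and among those not called 17%. In this fit 1213 genes were higher and 1061 lower in each of the 4 animals taken singly, and 419 were higher in 1 animal and lower in another. For 44 of these 419, changes of at least 2-fold in opposite directions were called. Animals taken singly gave 3691 higher and 3681 lower genes in 38155, 3341 and 3501 in 38142, 2630 and 2682 in 38157, and 2476 and 3151 in 38147. The count of 3322 moved with the libraries used: it was 842 without library number 1 and 1201 without library number 2 of every animal and group, and 1531 with a term for the column-name token.

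Each column name holds a token of unstated meaning, such as Lib1 GL67, which may mark a batch. In animals 38142, 38147 and 38157 no control library shares a whole token with an IL-15 library at 24 h. Whole token and treatment therefore cannot be told apart within these animals. In animal 38157, for example, all 3 control libraries carry Lib1 GL67, and the IL-15 libraries carry Lib1 GL75 or Lib2 GL75. In animal 38142 the part GL75 occurs in both groups, as Lib2 GL75 in control and Lib1 GL75 with IL-15. In animal 38155 both groups have 1 library of Lib1 GL67 and 2 of Lib1 GL75. There, genes called higher in the other 3 animals lay above 0 for 96.2% in Lib1 GL67 (1 library against 1) and 97.2% in Lib1 GL75 (2 against 2). Genes called lower lay below 0 for 94.7% and 96.3%, and genes not called had the same sign for 68.8% and 72.2%. Within these tokens the log2 difference of ENSMFAG00000045313 was 4.28 and 5.34, that of ENSMFAG00000064553 4.15 and 5, that of ENSMFAG00000043061 -5.93 and -6.3, and that of ENSMFAG00000039255 -4.63 and -3.74. These IDs were chosen with animal 38155 among the others, which favours these directions.

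Females and males were compared on the differences of the animals' sums, with 2 animals each. The error there is the spread between animals and not between libraries, so the count is not comparable with that of the test between animals. For 1 of 16380 genes the IL-15 effect at 24 h was greater in females (limma on the 4 differences, adjusted p under 0.05), for 0 it was smaller, and 1047 genes had an unadjusted p under 0.05. The log2 fold change of that gene was 3.78 and 3.65 in the 2 females and 0.04 and 0.57 in the 2 males (limma adjusted p = 0.004), with means of 57.4 CPM in control and 393 CPM in IL-15 sums. Its ID is not given. It was singled out after its values were seen. With 2 animals on each side no permutation test can pass 0.05, and sex and other differences between these animals cannot be told apart. With library number 1 left out, or number 2, 0 genes were called, with 864 and 1438 at an unadjusted p under 0.05.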

How the data were processed

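Whole-number counts per gene, not normalized, were deposited by the authors in 2 tables, with cynomolgus (38550 rows) and rhesus (35432 rows) gene IDs. RNA came from a Qiagen RNeasy Mini kit and libraries from KAPA mRNA HyperPrep, per the labels' protocols. For the aligner, counting tool, build and annotation, nothing is given in the sources. The rhesus counts were an alternative only. Counts of the 3 libraries of each animal and group were added up (44 sums).

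All 11 groups entered 1 fit of edgeR 4.0.16 in R 4.3.3 (quasi-likelihood, robust, TMM, filterByExpr, a term for the animal), and contrasts were tested at an adjusted p of 0.05. DESeq2 1.42.0 was an alternative. For the sexes, limma 3.58.1 (trend, robust) was run on each animal's log2 difference at 24 h. CPM values use TMM-scaled totals, and log2 values of single animals a prior count of 2. Deviations of an animal's control and IL-15 sums from their group means at 24 h correlated with r of 0.668 to 0.784. The animal, which the labels give, thus pairs the sums. Printed IDs are the 2 highest and 2 lowest log2 fold changes among called genes with at least 10 CPM and 1 direction in 4 of 4 animals. The 22 gene lists written for symbols could not be run. Members, lists and groupings were chosen with earlier results of these data known. Reads carry no molecular identifiers, so counting error understates the spread of molecules. Tests were also run on simulated data with independent libraries, no tokens and, for the main fit, the same IL-15 effect in every animal. Such data cannot show how the tests fare where animals differ or libraries are not separate cultures.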

Additional observations from a re-analysis of the deposited data

Results flagged for a closer look

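The control sum of ENSMFAG00000045313 at 24 h was 13.5 CPM in animal 38155, far from the other 3 animals. It is the only value flagged among the 17 groups of 4 animals examined. Chance flags about 1 in 20, so 1 such value is near what chance alone gives. The same animal also held the highest control value of this gene after 6, 12 and 48 h, at 3.56, 4.01 and 33.9 CPM. The effect of IL-15 differed between 12 and 24 h for 0.561% of genes and between 24 and 48 h for 551 genes. It differed between animals at 24 h for 3322 genes, against the spread between libraries. Differences between animals and between column-name tokens cannot be told apart there, nor for the IDs that follow. Among the printed IDs the IL-15 effect differed between animals for ENSMFAG00000045313 (edgeR adjusted p = 0.042), where the smallest log2 effect was 4.96 in animal 38155. It also differed for ENSMFAG00000043061 (adjusted p = 1.2e-05), with the smallest effect in animal 38147 at -3.12, and for ENSMFAG00000039255 (adjusted p = 2.9e-06), again with the smallest in 38147 at -2.93.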

How the results depend on the processing

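Under each alternative but the one without a term for the animal, the counts of genes higher and lower at 24 h stayed within 1.5 times those reported, with 2490 to 3129 higher and 2482 to 3345 lower when 1 animal was left out. With only the 8 sums at 24 h and a term for the animal, 3031 were higher and 2488 lower. With no replicate block (no term for the animal) 2172 were higher and 1200 lower. With a replicate block for every pair of sums (one animal, one time) they were 3799 and 4410. With RLE scaling 3359 were higher and 3837 lower, and the median of all genes was -0.083. The difference between the effects at 12 and 24 h, called for 0.561% of the genes tested, was called for 0.121% with no block and 1.03% with the block for pairs. It was called for 4.46% with libraries entered singly, 4.47% with their number as a replicate block as well, 4.71% with the token and 0.94% in DESeq2. The difference between 24 and 48 h, called for 551 genes, gave in the same order 163, 1161, 2813, 2821, 2672 and 861. Leaving out 1 animal or library number gave 0% to 0.565% for the first and 236 to 532 genes for the second. The test between animals gave 842 to 4595 genes with a library number left out and 1531 with the token. Without the library of animal 38147 that lay apart, an alternative chosen after seeing the data, it gave 3732. The test between sexes gave 72 genes without a filter on low counts and 0 to 3 with a library number left out. IL-15 took 32.9% of the variation in the rhesus table and 31.9% to 32.5% with a library number left out. The 0% and 0 genes had 772, 864 and 1438 genes at an unadjusted p under 0.05. The causes were not tested. Genes under 1 CPM at 0 h had a median standard error of 0.48 on the log2 scale.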

Other observations

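Genes called at 24 h that were at or near 0 in one group were few and stayed at low levels. Of the genes called higher with IL-15, 13 had at most 3 counts over the 4 control sums together, and with IL-15 they had a median of 0.147 CPM and at most 0.571 CPM. Of these, 7 had counts in all 4 IL-15 sums, and 8 also had at most 3 counts before culture. The 1 gene with 0 counts in control was at least 6.09-fold higher, taking 3 counts over the group as the floor. Of the genes called lower, 27 had at most 3 counts over the 4 IL-15 sums, with a median of 0.0772 CPM and at most 0.197 CPM in control. For the 4 genes of these with 0 counts, the lower bound of the fold had a median of 4.97 and reached at least 10.9-fold lower. None of these 13 and 27 called genes passed 1 CPM in the other group. Called gains and losses of this kind thus lay at the edge of what these libraries can count. Genes that were not called were not examined in this way.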
